A study of Mus musculus with 5 samples.

Results

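The genes described here are 49 genes of endoplasmic reticulum (ER) folding and collagen processing, picked by name for their known function. All 49 were found among the 30046 features of the deposited count table, and 47 passed the filter on low counts that left 10088 genes for testing. *Loxl4* and *Pcolce2* did not pass it and are given by their counts. The libraries are bulk RNA-seq of CAR cells (CXCL12-abundant reticular cells, the main stromal cells of the marrow), sorted as Cxcl12-GFP high, tdTomato+ cells from femurs at postnatal day 21. Pregnant dams were given tamoxifen at embryonic day 12.5, and the sampled mice were exposed in utero, so that tdTomato+ cells at sorting descend from cells with an active driver at that stage. The 3 Dlx5CE-E12.5 libraries came from Cxcl12(GFP/+) mice with Dlx5(CreER/+) and R26R(tdTomato/+), whose driver marks fetal perichondrial cells. The 2 Fgfr3CE-E12.5 libraries came from Cxcl12(GFP/+) mice with Fgfr3-iCreER and R26R(tdTomato/+), whose driver is a transgene that marks fetal chondrocytes. Mice of both groups carried GFP in place of 1 copy of *Cxcl12* and were exposed to tamoxifen, cells of littermates were pooled by genotype, and there is no unexposed or *Cxcl12* wild-type group.

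The comparison asks whether marrow stromal cells that descend from the fetal perichondrium and from fetal cartilage differ in their secretory and collagen-making genes. Total counts were 22035650 to 32563758 in Dlx5CE-E12.5 cells and 56355203 to 58166285 in Fgfr3CE-E12.5 cells. The 3 counts taken here as the smallest detectable amount equal 0.0516 to 0.136 CPM (counts scaled to a library total of 1e6) over the libraries, and cover counting error only. Levels are CPM after TMM normalization, which scales libraries to each other, and changes are log2 fold changes of Fgfr3CE-E12.5 over Dlx5CE-E12.5 cells from edgeR's quasi-likelihood test. A gene is called changed when its p-value, adjusted over the 10088 genes by the Benjamini-Hochberg method, is under 0.05 and its absolute log2 fold change is above 1. By the study's methods, the lineages were also sequenced on different machines with different read lengths, while GEO's text names 1 machine for all libraries. The methods give paired-end reads for Dlx5CE-E12.5 and shorter single-end reads for Fgfr3CE-E12.5 cells. If the methods hold, sequencing and lineage cannot be told apart. In bulk libraries, fewer cells of a type and less RNA per cell cannot be told apart either.

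The sorted cells carried the markers of CAR cells in every library, with *Cxcl12* at 21252 to 22405 CPM in Dlx5CE-E12.5 cells and at 8068 and 5802 CPM in Fgfr3CE-E12.5 replicates 2 and 3. Of 10 marrow stromal markers, 7 were called higher in Dlx5CE-E12.5 cells and 1 in Fgfr3CE-E12.5 cells. All 12 pan-leukocyte markers were called higher in Fgfr3CE-E12.5 cells, with a summed level of 412 to 502 CPM against 1334 and 2837 CPM, and so were 11 of 12 neutrophil and myeloid progenitor markers (2875 to 3544 against 8429 and 20712 CPM). Of the leukocyte markers, *Cd48* passed the filter only through the Fgfr3CE-E12.5 libraries. Proliferation genes were higher in Fgfr3CE-E12.5 cells for 8 of 12 (500 to 791 against 1387 and 1649.9 CPM), and osteoblast genes for 5 of 11, with 1 higher in Dlx5CE-E12.5 cells. Of 10 chondrocyte genes, 5 were tested and 3 were called, all higher in Fgfr3CE-E12.5 cells. These 3, *Col2a1*, *Col9a2* and *Col9a3*, passed the filter only through the Fgfr3CE-E12.5 libraries, where they are high. The 10 summed to 176 to 185 CPM in Dlx5CE-E12.5 cells and to 3227 and 479 CPM in Fgfr3CE-E12.5 replicates 2 and 3. *Col2a1* alone made up 2598 and 343 CPM of the latter. *Col9a1* and *Col10a1* had no counts in Dlx5CE-E12.5 cells. *Sox9* pointed the other way without a call, at 117 to 124 CPM against 96.8 and 53.7 CPM (log2 fold change -0.69), and *Col11a1* was not called (0.05). Among markers of plasma cells, whose ER is large, *Jchain* was at most 0.159 CPM in any library and *Mzb1* was 4.41 to 14.4 CPM, while *Sdc1* fell by 1.01 in log2 units. Erythroid genes summed to 35943 CPM in Dlx5CE-E12.5 replicate 1, against 17605 and 23189 CPM in replicates 2 and 3 and 13573 and 20165 CPM in Fgfr3CE-E12.5 cells, with 2 of 8 called higher in Dlx5CE-E12.5 cells. One of 8 endothelial genes passed the filter and was not called. The part of these cells in the results below was not tested.

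Secreted and membrane proteins enter the ER as unfolded chains. There, chaperones of the Hsp70, Hsp90 and lectin families hold them, protein disulfide isomerases join their cysteines, and chains that fail are sent back to the cytosol for ER-associated degradation. When unfolded protein accumulates, 3 membrane sensors (IRE1, ATF6 and PERK) start the unfolded protein response, which raises chaperone genes and lowers translation. Procollagen, the main cargo of bone and stromal cells, needs helpers of its own: hydroxylases of proline and lysine, the collagen chaperone HSP47, and a widened export site for its long rigid trimer. Outside the cell, propeptides are cut off and lysyl oxidases cross-link the fibrils.

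Many genes of the unfolded protein response are known to carry the ER stress element, a promoter sequence bound by ATF6 and XBP1 together with NF-Y. It is searched here as CCAAT, any 9 bases and then CCACG, on both strands, from 250 bases before to 50 bases after each RefSeq start on GRCm38.p6. Promoters were listed for 37 of the 49 members, not for *Hyou1*, *Manf*, *Atf6*, *Creb3l1*, *Plod2*, *Fkbp10*, *Leprel1*, *Lox*, *Loxl1*, *Loxl2*, *Loxl3* and *Ssr2*. The element was present in 8 of these 37 genes (21.6%), against 37 of all 27025 genes with a promoter (0.137%). The 8 members are shown because they are the ones that share this sequence, and the capitals mark the element, read on the strand of the gene. Where the element lies on the other strand, it begins with CGTGG and ends with ATTGG.
Hspa5, chr2:34772020-34772048, forward strand: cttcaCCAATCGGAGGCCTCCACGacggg
Hsp90b1, chr10:86705528-86705556, reverse strand: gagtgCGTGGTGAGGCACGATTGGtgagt
Hsp90b1, chr10:86705633-86705661, reverse strand: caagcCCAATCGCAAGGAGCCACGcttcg
Calr, chr8:84847070-84847098, reverse strand: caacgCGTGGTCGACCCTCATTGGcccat
Canx, chr11:50325795-50325823, reverse strand: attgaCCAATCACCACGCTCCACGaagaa
Creld2, chr15:88819515-88819543, forward strand: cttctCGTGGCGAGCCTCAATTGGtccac
Dnajc3, chr14:118937822-118937850, forward strand: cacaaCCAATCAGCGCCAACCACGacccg
Pdia6, chr12:17266486-17266514, forward strand: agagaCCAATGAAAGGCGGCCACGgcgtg
Syvn1, chr19:6046527-6046555, forward strand: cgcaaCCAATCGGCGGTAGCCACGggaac
The elements lay between 212 and 26 bases before the start. In *Hspa5*, which encodes BiP, it lay from 65 to 47 bases before it, and *Hsp90b1* carried 2 of them. All 8 genes passed the filter, none was called changed, and 1 of them, *Dnajc3*, had an adjusted p under 0.05. Their log2 fold changes ran from -0.79 to 0.33 with a median of -0.29. By the same edgeR test, 8 of the 27 tested members with a promoter and no element were called, while 29.5% of all genes tested were. Of the 29 other genes with the element, 6 were tested and 1 was called, higher in Dlx5CE-E12.5 cells. The difference between genes with and without the element was not tested. A second sequence, TGACGTGG, bound by XBP1 and ATF6 alone, was found in *Sec23a* and *Sec24d*, 2 of 37 members (5.41%, against 0.714% of all genes). It lay after the start in *Sec23a*, and in *Sec24d* from 26 to 19 bases before it:
Sec24d, chr3:123267465-123267482, forward strand: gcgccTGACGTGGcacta
Its core ACGTGG, which is part of it, was found in 11 of the 37 (29.7%, against 9.40%), and CCACG, which ends the ER stress element and whose reverse complement lies within the core, in 27 of the 37 (73.0%, against 35.5%). *Serpinh1*, *Dnajb9*, *Herpud1* and *P4hb* are among the members with the core. These matches describe letters in a window and do not show that a factor binds there.

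Of the 47 members tested, 12 were called changed, 25.5% against 29.5% of all genes tested. Of these, 8 were higher in Dlx5CE-E12.5 cells (17.0%, against 13.1% of all genes) and 4 were higher in Fgfr3CE-E12.5 cells (8.51%, against 16.4%). Among the latter, *P4ha3* and *Eif2ak3* needed the Fgfr3CE-E12.5 libraries to pass the filter. No Dlx5CE-E12.5 library reached the filter's CPM for *P4ha3*, and only replicate 3 did for *Eif2ak3*. Among the former, *Ern1* needed the Dlx5CE-E12.5 libraries, as Fgfr3CE-E12.5 replicate 3 was under that CPM. The adjusted p alone was under 0.05 for 25 members (53.2%, against 48.4%), 17 lower and 8 higher in Fgfr3CE-E12.5 cells. In 34 members the libraries of the lineages did not overlap (72.3%, against 68.9%), with Dlx5CE-E12.5 cells above in 25 and Fgfr3CE-E12.5 cells above in 9. The median log2 fold change was -0.31, against 0.01 for all genes. The share of members called is thus near that of all genes, and what follows describes which members make it up. Every count by role, list or marker set is to be read against these shares of all genes, 29.5% called and 48.4% with an adjusted p under 0.05. Without Fgfr3CE-E12.5 replicate 3, the library with the most leukocyte RNA, 8 of 46 tested members were called, 5 higher in Dlx5CE-E12.5 cells and 3 higher in Fgfr3CE-E12.5 cells, and the share over all genes was 21.7% (2026 of 9356).

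**Figure D1:**
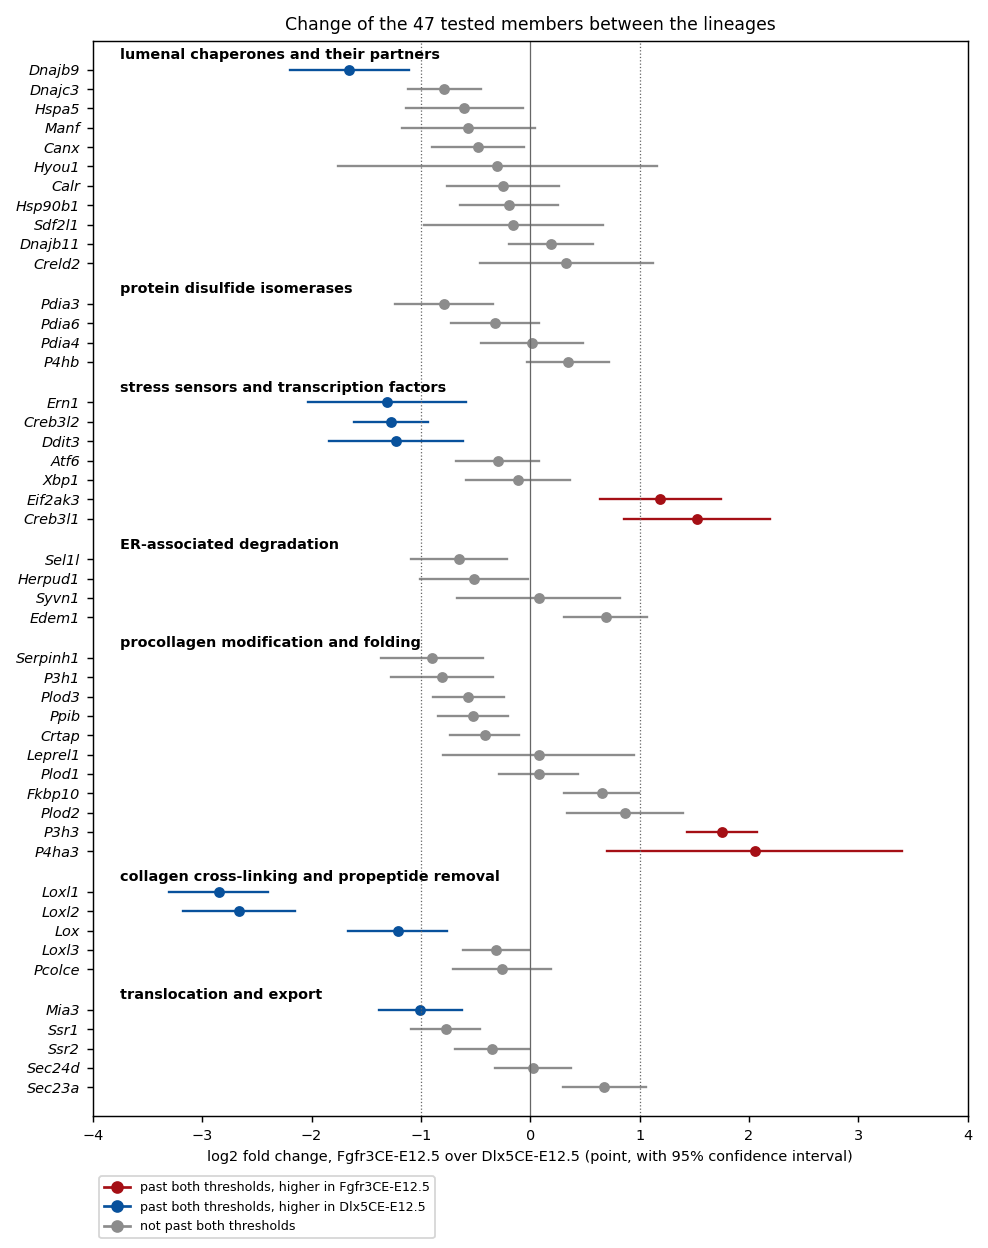
Log2 fold change of each of the 47 tested members, Fgfr3CE-E12.5 over Dlx5CE-E12.5 cells, with points for the estimate and bars for its 95% confidence interval, grouped by role. Colors mark members past both thresholds, dotted lines a log2 fold change of 1 in either direction; the called members run from *Loxl1* at -2.85 to *P4ha3* at 2.05.

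Levels between genes are compared per kilobase of exon. On this scale the most abundant members over the 5 libraries were *Serpinh1*, at 1108 CPM per kilobase, and *Hspa5*, at 822, followed by *Loxl1* at 394, *P4hb* at 374 and *Pdia3* at 361. The least abundant members that were tested were *Ern1* at 1.95, *P4ha3* at 2.25 and *Eif2ak3* at 2.29 CPM per kilobase, and the untested *Loxl4* and *Pcolce2* stood at 1.34 and 0.603. Thus 2 of the 3 stress sensors were among the least abundant members, and the third, *Atf6*, stood at 7.21. In Dlx5CE-E12.5 cells *Loxl1* stood at 602 CPM per kilobase and in Fgfr3CE-E12.5 cells at 83.4, while *P4hb* stood at 337 and 429.

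**Figure D2:**
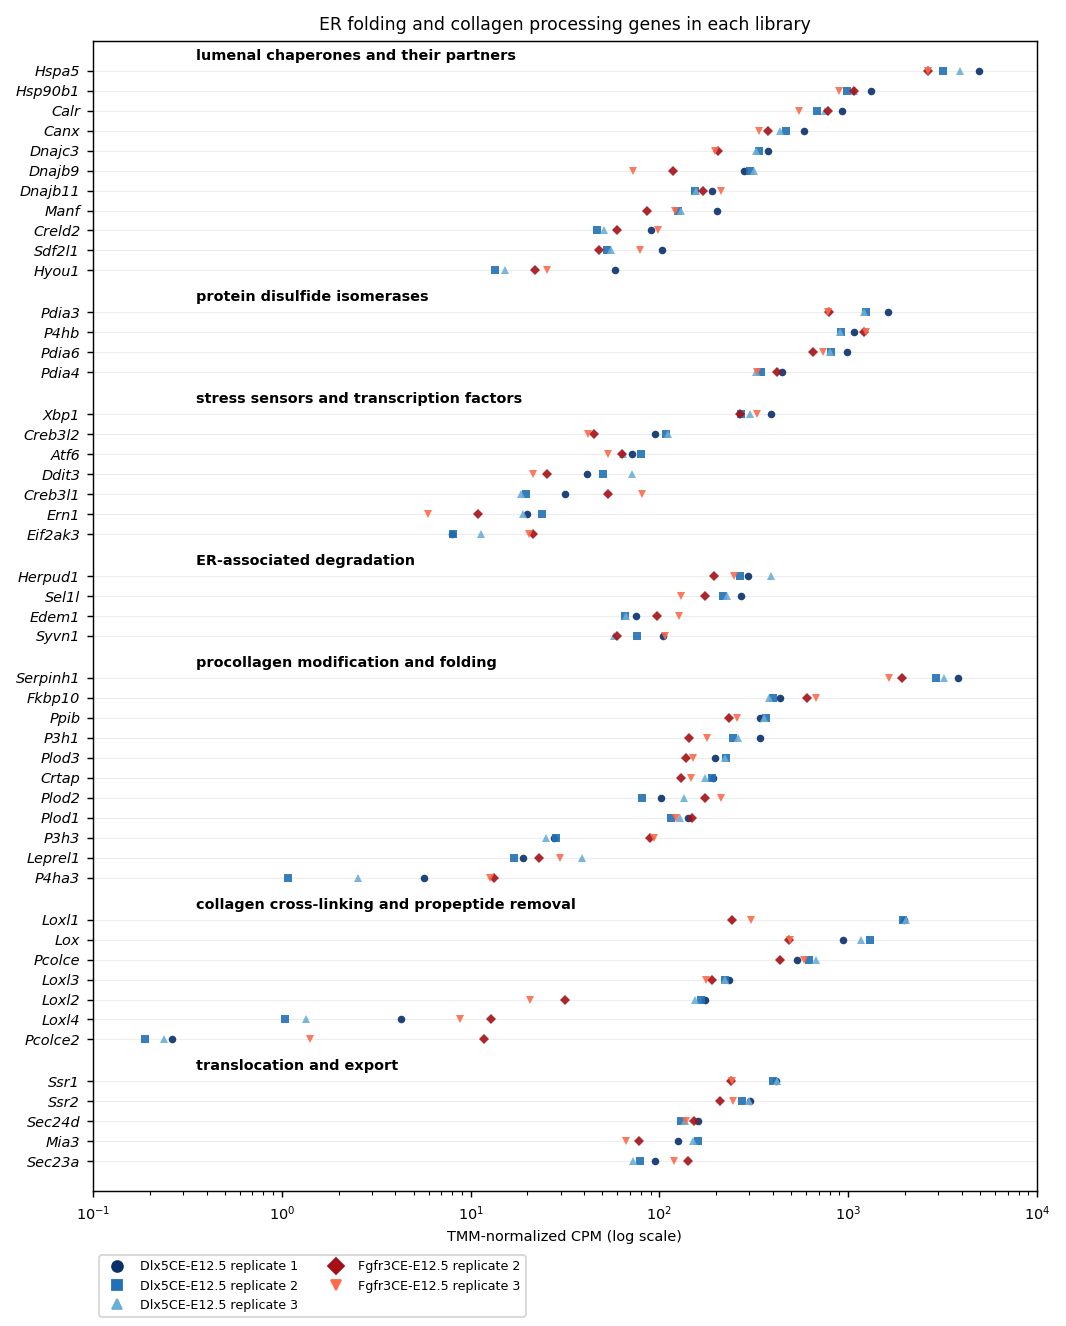
TMM-normalized CPM of the 49 members in each of the 5 libraries on a log axis, 1 point per library, grouped by role. Most members differ more between genes than between lineages, and *Loxl1*, *Loxl2*, *Dnajb9*, *P3h3* and *Creb3l2* show libraries of the lineages clearly apart.

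Of the 11 lumenal chaperones and their partners, 1 was called, *Dnajb9*, and 2 had an adjusted p under 0.05. *Hspa5* encodes BiP, the ER Hsp70. It stood at 4950.0, 3198 and 3938 CPM in Dlx5CE-E12.5 replicates 1, 2 and 3 and at 2649 and 2652 CPM in Fgfr3CE-E12.5 replicates 2 and 3, the order in which values are listed from here on. The groups did not overlap, and the log2 fold change of -0.60 (standard error 0.23, 95% confidence interval -1.14 to -0.07) had an adjusted p of 0.0627. *Dnajb9* encodes ERdj4, a J-domain partner of BiP that also restrains the sensor IRE1. Its levels were 279, 302 and 318 CPM in Dlx5CE-E12.5 cells and 118 and 72.2 CPM in Fgfr3CE-E12.5 cells, so that every Dlx5CE-E12.5 library was above both others. The fall was 3.15-fold, or 1.65 in log2 units (standard error 0.23, adjusted p = 0.00137). A pseudogene that shares 5.50% of the 50-base windows of *Dnajb9*, *Gm6568*, had 299, 276 and 317 counts in Dlx5CE-E12.5 cells and none in Fgfr3CE-E12.5 cells, at most 4.31% of the *Dnajb9* count of a library.

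*Dnajc3*, another J-domain partner of BiP, stood at 376, 338 and 325 CPM against 205 and 196 CPM, without overlap. Its log2 fold change of -0.79 (adjusted p = 0.00393) was under the fold threshold. *Dnajb11*, the third J-domain gene of the group, overlapped between the lineages (log2 fold change 0.19). *Hsp90b1*, the ER Hsp90, ranged from 990.3 to 1322 CPM in Dlx5CE-E12.5 cells and stood at 1077 and 896 CPM in Fgfr3CE-E12.5 cells. The lectin chaperones *Calr* and *Canx*, which hold glycoproteins, had log2 fold changes of -0.25 and -0.48 (adjusted p = 0.376 and 0.062). The other members of the group are *Hyou1*, which exchanges the nucleotide of BiP, *Sdf2l1*, *Creld2* and *Manf*. Their log2 fold changes were -0.30, -0.15, 0.33 and -0.57, none with an adjusted p under 0.05.

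Dlx5CE-E12.5 replicate 1 was the highest of its group for 10 of these 11 chaperone genes and for all 4 disulfide isomerases. Over all tested members it was highest in 30 of 47 (63.8%, against 39.6% of all genes). Its level was a median of 1.29 times the mean of replicates 2 and 3 for the chaperones and 1.28 times for the isomerases, against 1.00 times for all genes. *Hyou1* was furthest apart, at 58.4 CPM in replicate 1, 13.6 and 15.3 CPM in replicates 2 and 3, and 22.0 and 25.4 CPM in Fgfr3CE-E12.5 cells. Without replicate 1 its log2 fold change turned from -0.30 to 0.71 (adjusted p = 0.032). None of the chaperones or isomerases gained a call without this library, and the count of members called stayed at 12. The same library had the highest erythroid level of the 5, and its part was not tested.

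The protein disulfide isomerases gave no call. *Pdia3*, which works on glycoproteins held by calreticulin and calnexin, stood at 1627, 1239 and 1221 CPM in Dlx5CE-E12.5 cells and at 791 and 782 CPM in Fgfr3CE-E12.5 cells. The groups did not overlap, and the log2 fold change was -0.79 ± 0.19 (SE, adjusted p = 0.0124), under the fold threshold. *P4hb*, which is both an isomerase and the shared subunit of the prolyl 4-hydroxylases, was highest in Fgfr3CE-E12.5 cells, at 1217 and 1237 CPM against 905 to 1076 CPM. That difference had a log2 fold change of 0.35 (adjusted p = 0.111). *Pdia4* and *Pdia6* had log2 fold changes of 0.02 and -0.32 (adjusted p = 0.951 and 0.161).

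The stress sensors and transcription factors held the most calls of any role, 5 of 7 (71.4%, against 29.5% of all genes tested), in both directions. *Xbp1*, whose message is spliced by IRE1, stood at 391, 269 and 301 CPM against 266 and 328 CPM, with the groups interleaved (log2 fold change -0.11, adjusted p = 0.681). The counts per gene do not separate its spliced from its unspliced form. *Ern1*, which encodes IRE1, stood at 19.9, 23.9 and 19.1 CPM in Dlx5CE-E12.5 cells and at 10.9 and 5.96 CPM in Fgfr3CE-E12.5 cells. It fell by 1.31 in log2 units (standard error 0.30, adjusted p = 0.0112), and by 0.88 without Fgfr3CE-E12.5 replicate 3, which is under the fold threshold. *Ern1* needed the Dlx5CE-E12.5 libraries, where it is high, to pass the filter. With the filter lowered to a CPM of 1, which every library reached, its log2 fold change was -1.33 (adjusted p = 0.0111). *Eif2ak3*, which encodes PERK, the sensor that slows translation, went the other way. Its 7.99, 8.10 and 11.3 CPM in Dlx5CE-E12.5 cells lay below the 21.4 and 20.3 CPM in Fgfr3CE-E12.5 cells, a rise of 1.19 (standard error 0.23, adjusted p = 0.00571). *Eif2ak3* needed the Fgfr3CE-E12.5 libraries, where it is high, to pass the filter. Under the lower filter, which every library reached, its log2 fold change was 1.17 (adjusted p = 0.00662). *Atf6*, the third sensor, was not called (log2 fold change -0.30, adjusted p = 0.164).

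*Ddit3* encodes CHOP, a factor induced late in ER stress and downstream of PERK. It stood at 41.4, 50.4 and 72.1 CPM against 25.4 and 21.3 CPM, with Dlx5CE-E12.5 replicate 3 the highest. It fell by 1.23 (standard error 0.26, adjusted p = 0.0076), but by 0.98 without Dlx5CE-E12.5 replicate 3, and the adjusted p was 0.0576 without Fgfr3CE-E12.5 replicate 3. The exons of *Ddit3* overlap those of *Mars*, on the opposite strand, over 4.73% of their length, and *Mars* had 1723 to 2497 counts in Dlx5CE-E12.5 cells and 6205 and 6748 in Fgfr3CE-E12.5 cells.

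*Creb3l1* and *Creb3l2* encode OASIS and BBF2H7, membrane-bound factors released by cleavage and known for secretory genes of osteoblasts and of chondrocytes, respectively. *Creb3l1* stood at 31.5, 19.8 and 18.6 CPM in Dlx5CE-E12.5 cells and at 53.5 and 80.6 CPM in Fgfr3CE-E12.5 cells. It rose by 1.52 (standard error 0.28, adjusted p = 0.00447), and by 1.00, just under the threshold, after a trend on GC content and length was removed. *Creb3l2*, at 94.6, 109 and 112 CPM against 44.9 and 41.8 CPM, changed the opposite way, with a fall of 1.28 (standard error 0.14, adjusted p = 0.000565). Neither gene overlapped between the lineages.

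Ratios within a library put these opposed genes side by side. Both members of such a pair already differ between the lineages without overlap and in opposite directions. Their ratio therefore separates the lineages by construction and is a description only. The level of *Creb3l1* per *Creb3l2* was 0.227 ± 0.0921 (SD, n = 3) in Dlx5CE-E12.5 cells and 1.56 ± 0.518 (SD, n = 2) in Fgfr3CE-E12.5 cells. For *Eif2ak3* per *Ern1* it was 0.446 ± 0.133 (SD, n = 3) and 2.68 ± 1.02 (SD, n = 2). These ratios are of CPM and are not scaled by length, so their size means something only between libraries.

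**Figure D3:**
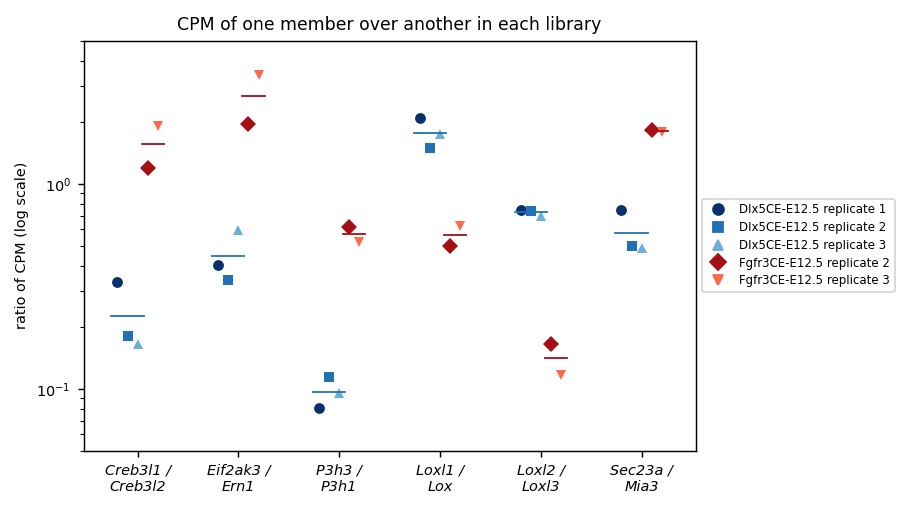
Ratio of the CPM of a member to that of another in each library, on a log axis, with 1 point per library and a line at the mean of each lineage (3 Dlx5CE-E12.5 and 2 Fgfr3CE-E12.5 libraries). In each of the 6 pairs the libraries of the lineages do not overlap, as in *Creb3l1* per *Creb3l2* with means of 0.227 and 1.56. The pairs were picked by hand. In *Creb3l1* per *Creb3l2*, *Eif2ak3* per *Ern1*, *P3h3* per *P3h1* and *Sec23a* per *Mia3*, both members differ without overlap in opposite directions, which fixes this outcome.

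The ER-associated degradation genes gave no call among 4. *Herpud1*, which recruits the HRD1 ligase complex, stood at 294, 268 and 389 CPM in Dlx5CE-E12.5 cells and at 195 and 248 CPM in Fgfr3CE-E12.5 cells, without overlap (log2 fold change -0.52, standard error 0.21, adjusted p = 0.0795). *Edem1*, which takes misfolded glycoproteins out of the folding cycle, was higher in Fgfr3CE-E12.5 cells. Its levels were 75.5, 65.8 and 66.3 CPM against 96.7 and 127 CPM, and its log2 fold change of 0.69 ± 0.16 (SE, adjusted p = 0.0112) was under the fold threshold. *Sel1l*, the partner of HRD1, was lower (log2 fold change -0.65, adjusted p = 0.0247), and *Syvn1*, which encodes HRD1 itself, had a log2 fold change of 0.07 (adjusted p = 0.862).

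Procollagen modification and folding genes differed in both directions. Of 11 genes, 9 had an adjusted p under 0.05 (81.8%, against 48.4% of all genes tested), 5 lower and 4 higher in Fgfr3CE-E12.5 cells. The 2 called (18.2%, against 29.5%) were both higher in Fgfr3CE-E12.5 cells. *Serpinh1*, which encodes HSP47, the chaperone of the procollagen triple helix, stood at 3822, 2930.3 and 3214 CPM in Dlx5CE-E12.5 cells and at 1934 and 1638 CPM in Fgfr3CE-E12.5 cells. The groups were well apart, with a log2 fold change of -0.90 (standard error 0.20, 95% confidence interval -1.36 to -0.43, adjusted p = 0.00901), under the fold threshold. *P3h1*, *Crtap* and *Ppib* encode the complex that hydroxylates a single proline of type I procollagen and helps it fold. All were lower in Fgfr3CE-E12.5 cells, with log2 fold changes of -0.81, -0.42 and -0.53 (adjusted p = 0.0131, 0.0374 and 0.0172). The *Ppib* exons overlap those of *Snx22*, on the opposite strand, over 25.0% of their length. *Snx22* had 295, 250 and 345 counts against 990 and 2041 counts, at most 12.4% of *Ppib*, and the strand setting of the counting is not given in the sources used here.

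*P3h3*, a relative of *P3h1* that works with the lysyl hydroxylase *Plod1*, went against it. It stood at 27.6, 28.3 and 25.1 CPM in Dlx5CE-E12.5 cells and at 88.9 and 93.3 CPM in Fgfr3CE-E12.5 cells, with little spread in either group. It rose by 1.76 (standard error 0.13, adjusted p = 0.000127), 3.38-fold, and by 1.06 after a trend on GC content and length was removed. *P3h3* per *P3h1* was 0.0971 ± 0.0169 (SD, n = 3) in Dlx5CE-E12.5 cells and 0.569 ± 0.0682 (SD, n = 2) in Fgfr3CE-E12.5 cells. *P4ha3*, a catalytic subunit of prolyl 4-hydroxylase, was scarce, with 173, 23 and 64 counts in Dlx5CE-E12.5 cells and 820 and 802 counts in Fgfr3CE-E12.5 cells. Its 5.64, 1.08 and 2.55 CPM against 13.3 and 12.7 CPM gave a rise of 2.05 (standard error 0.57). The gene entered the fit only through the Fgfr3CE-E12.5 libraries, where it is high, so its p-value is left out. It lost the call without Dlx5CE-E12.5 replicate 3, and it failed the filter without either Fgfr3CE-E12.5 library.

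The lysyl hydroxylases, which prepare sites for sugars and cross-links, did not move as a group. *Plod2*, which acts on the telopeptides, had a log2 fold change of 0.87 (adjusted p = 0.0168), *Plod3* one of -0.57 (adjusted p = 0.013) and *Plod1* one of 0.08 (adjusted p = 0.712). *Fkbp10*, a prolyl isomerase that works with *Plod2*, was also higher in Fgfr3CE-E12.5 cells, at 604 and 672 CPM against 382 to 436 CPM. Its log2 fold change was 0.65 (adjusted p = 0.0092). *Leprel1*, which encodes prolyl 3-hydroxylase 2, ranged from 17.0 to 39.1 CPM in Dlx5CE-E12.5 cells around the 23.1 and 29.6 CPM of Fgfr3CE-E12.5 cells, and 28.4% of its exon length overlaps *Gm4524*.

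The largest changes of the 47 tested genes were in collagen cross-linking, where the lysyl oxidases *Lox*, *Loxl1* and *Loxl2* fell together and the other 2 tested genes did not pass. *Loxl1* (ENSMUSG00000032334, chromosome 9 of GRCm38 from 58287738 to 58313186, reverse strand) encodes an oxidase known for elastic fibers. It stood at 1969, 1952 and 2029.7 CPM in Dlx5CE-E12.5 cells and at 243 and 307 CPM in Fgfr3CE-E12.5 cells, far apart between the groups. It fell by 2.85 in log2 units (standard error 0.19, 95% confidence interval -3.30 to -2.40, adjusted p = 7.6e-05), 7.21-fold. *Loxl2* (ENSMUSG00000034205, chromosome 14 from 69609068 to 69695834) cross-links type IV collagen. Its 174, 166 and 155 CPM against 31.5 and 20.6 CPM gave a fall of 2.67 (standard error 0.22, adjusted p = 0.000159), 6.34-fold. Of the 50-base windows of *Loxl2*, 45.0% also occur in the non-coding genes *Gm21451* or *Gm16867*, whose counts were at most 7.91% and 5.67% of those of *Loxl2* in any library. These counts, like those of *Gm6568* for *Dnajb9*, do not bound the reads that match both genes. How such reads were counted is not given in the sources used here, and their part was not tested. *Gm27177*, on the opposite strand, overlaps 5.57% of the *Loxl2* exon length and had 249, 33 and 54 counts in Dlx5CE-E12.5 cells and 347 and 776 counts in Fgfr3CE-E12.5 cells, at most 59.6% of those of *Loxl2*. *Lox*, the oxidase of fibrillar collagen and elastin, stood at 935, 1308 and 1164 CPM against 488 and 492 CPM. It fell by 1.21 (standard error 0.19, adjusted p = 0.00231), 2.32-fold.

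*Loxl3* did not overlap between the lineages and was not called, at 222 to 234 CPM and at 189.7 and 176 CPM (log2 fold change -0.31, adjusted p = 0.0829). *Loxl1* per *Lox* fell from 1.78 ± 0.309 (SD, n = 3) to 0.561 ± 0.0906 (SD, n = 2), and *Loxl2* per *Loxl3* from 0.728 ± 0.0259 (SD, n = 3) to 0.141 ± 0.0349 (SD, n = 2). *Loxl4*, the fifth gene of the family, pointed the other way. It had 131, 22 and 34 counts in Dlx5CE-E12.5 cells and 787 and 560 counts in Fgfr3CE-E12.5 cells, which is 4.27, 1.04 and 1.35 CPM against 12.8 and 8.84 CPM. With the filter lowered to a CPM of 1, its log2 fold change was 2.24 (standard error 0.60, adjusted p = 0.0209).

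*Pcolce* and *Pcolce2* encode enhancers of the proteinase that removes the procollagen C-propeptide. *Pcolce* ranged from 539.5 to 675 CPM in Dlx5CE-E12.5 cells and stood at 437 and 585 CPM in Fgfr3CE-E12.5 cells, overlapping between the lineages (log2 fold change -0.26, adjusted p = 0.293). *Pcolce2* had 8, 4 and 6 counts in Dlx5CE-E12.5 cells and 728 and 90 counts in Fgfr3CE-E12.5 cells. Its level in Fgfr3CE-E12.5 replicate 2 was 8.33 times that in replicate 3, and replicate 2 is also the library with the higher chondrocyte sum. Under the lower filter its log2 fold change was 4.80 (standard error 0.91). No Dlx5CE-E12.5 library reached that filter's CPM of 1. The gene thus entered the fit only through the group where it is high, and its p-value is left out.

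**Figure D4:**
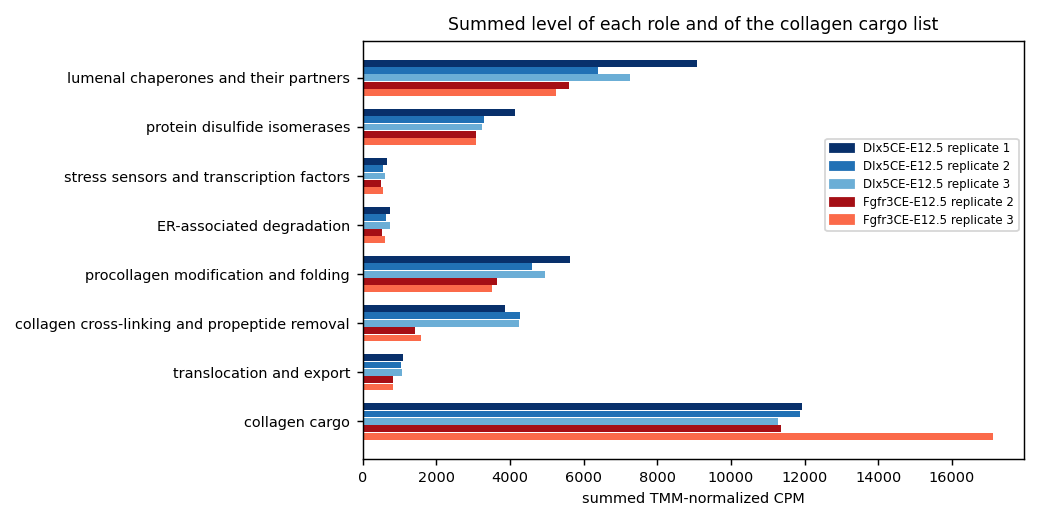
Summed TMM-normalized CPM of the members of each role, and of 17 collagen genes, in each of the 5 libraries; bars start at 0 and are to be compared within a role. Cross-linking genes sum to 3855 to 4271 CPM in Dlx5CE-E12.5 cells and to 1413 and 1590.4 CPM in Fgfr3CE-E12.5 cells.

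Summed over the role, the cross-linking and propeptide genes stood at 3855, 4271 and 4248 CPM in Dlx5CE-E12.5 cells and at 1413 and 1590.4 CPM in Fgfr3CE-E12.5 cells. Procollagen modification genes stood at 5626, 4604 and 4945 CPM against 3635 and 3517 CPM, a sum of which *Serpinh1* is the largest part. The 11 chaperones summed to 9079.7, 6378 and 7257 CPM against 5591 and 5237 CPM. The summed collagen cargo did not follow them, with 11289 to 11943 CPM against 11355 and 17115 CPM.

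Set against type I collagen (the sum of *Col1a1* and *Col1a2*), the cross-linking genes had 951 ± 140.1 CPM (SD, n = 3) per 1000 CPM of collagen in Dlx5CE-E12.5 cells and 264 ± 107 CPM (SD, n = 2) in Fgfr3CE-E12.5 cells. *Serpinh1* had 759.9 ± 85.9 (SD, n = 3) and 329.8 ± 192 (SD, n = 2), and *Loxl1* had 457 ± 55.2 (SD, n = 3) and 47.4 ± 15.6 (SD, n = 2). *P4hb* had 221 ± 12.6 (SD, n = 3) and 219.7 ± 104 (SD, n = 2), with Fgfr3CE-E12.5 replicate 2 at 293 and replicate 3 at 146. The 2 Fgfr3CE-E12.5 libraries were far apart on this scale, and *Col1a1* itself stood at 2602 and 5182 CPM in them.

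Of the genes of translocation and export, 1 of 5 was called. *Mia3* (ENSMUSG00000056050, chromosome 1 from 183326725 to 183369553) encodes TANGO1, which loads procollagen into export carriers. It stood at 126, 159.8 and 150.2 CPM against 77.8 and 66.8 CPM, without overlap, and fell by 1.01 (standard error 0.16, adjusted p = 0.00236). This is at the fold threshold, and the fall was 0.80 when libraries were scaled by size alone, 0.97 when features of every gene type entered the fit, and 0.94, 0.99 and 0.84 without Dlx5CE-E12.5 replicate 2, Dlx5CE-E12.5 replicate 3 and Fgfr3CE-E12.5 replicate 3. *Ssr1*, a subunit of the complex that helps chains through the translocon, was steady within groups at 418, 399 and 421 CPM against 240.2 and 242 CPM. Its log2 fold change of -0.78 ± 0.13 (SE, adjusted p = 0.00323) was -0.32 after a trend on GC content and length was removed. *Sec23a*, a subunit of the COPII coat needed for procollagen export, was higher in Fgfr3CE-E12.5 cells (log2 fold change 0.68, adjusted p = 0.0122), while its partner *Sec24d* stood at 129.8 to 161 CPM against 152 and 139 CPM (log2 fold change 0.03). *Sec23a* per *Mia3* was 0.577 ± 0.150 (SD, n = 3) against 1.82 ± 0.0256 (SD, n = 2), and *Ssr2* had a log2 fold change of -0.35 (adjusted p = 0.0789).

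Further genes of the same pathways were counted from lists by function. Of 132 listed, 123 passed the filter and 21 were called (17.1%, against 29.5% of all genes), 12 higher in Fgfr3CE-E12.5 cells and 9 higher in Dlx5CE-E12.5 cells, with a median log2 fold change of -0.20. Among 34 other folding genes, 3 were called, all higher in Fgfr3CE-E12.5 cells. *Mogs*, the glucosidase that trims the first glucose of N-glycans, stood at 11.4, 11.3 and 9.51 CPM against 115 and 184 CPM, a rise of 3.80 (adjusted p = 5.7e-05). *Txndc5*, a disulfide isomerase, rose by 1.05 (adjusted p = 0.00208).

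Among other stress response genes, 14 of 17 were tested and 4 were called. *Cebpb*, a transcription factor also of myeloid cells, adipocyte precursors and other lineages, stood at 2.25, 4.33 and 5.89 CPM in Dlx5CE-E12.5 cells and at 796 and 845 CPM in Fgfr3CE-E12.5 cells. It rose by 7.63 in a fit that it entered only through the Fgfr3CE-E12.5 libraries, so its p-value is left out. The leukocyte sums of the Fgfr3CE-E12.5 libraries were 1334 and 2837 CPM, and their part in this rise was not tested. *Sesn2*, a stress-induced gene, fell by 1.16 (adjusted p = 0.00102), and *Nupr1* fell by 1.12 (adjusted p = 0.00133). Among other ER-associated degradation genes, 3 of 18 tested were called. *Nploc4*, a cofactor of the p97 ATPase, rose by 2.69 (adjusted p = 4.3e-05), while the lectin *Erlec1* fell by 1.03 (adjusted p = 0.00179).

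In collagen processing outside the 49 genes, 3 of 12 tested were called. *Bmp1*, the procollagen C-proteinase whose action *Pcolce* enhances, stood at 232, 326 and 309 CPM against 755 and 837 CPM, a rise of 1.46 (adjusted p = 0.000936). *Adamts14*, an N-proteinase, fell by 1.42 (adjusted p = 0.013). Translocation, glycosylation and export genes gave 8 calls of 46 tested, 4 in each direction. *Ctage5*, which works with TANGO1 at the export site, stood at 27.6, 24.8 and 27.8 CPM against 103 and 120.5 CPM and rose by 2.07 (adjusted p = 8.5e-05), opposite to *Mia3*. *Sec61g*, a small subunit of the translocon, fell by 4.46, from 36.6 to 42.4 CPM down to 1.79 and 1.74 CPM. It entered the fit only through the Dlx5CE-E12.5 libraries, where it is high, so its p-value is left out. The cargo receptor *Tmed9* fell by 1.67 (adjusted p = 0.000223). Sequence shared with other genes was not examined for genes outside the 49.

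The cargo itself changed in both directions. Of 16 collagen genes tested, 4 were higher in Fgfr3CE-E12.5 cells and 3 in Dlx5CE-E12.5 cells. *Col1a1* rose by 1.07 (adjusted p = 0.0278) and *Col18a1* rose by 2.23 (adjusted p = 0.000101). *Col14a1*, a collagen found on fibril surfaces, fell by 4.98, from 16.9 to 17.4 CPM down to 0.585 and 0.489 CPM. This gene also entered the fit only through the Dlx5CE-E12.5 libraries, so its p-value is left out. *Col3a1* and *Col6a1* fell by 1.32 and 1.15.

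Over 14 other settings of the processing, *Dnajb9*, *Creb3l2*, *Eif2ak3*, *Lox*, *Loxl1*, *Loxl2* and *P3h3* were called under each. *Loxl1* ran from -3.52 to -2.62, *Loxl2* from -2.93 to -2.33 and *Creb3l2* from -1.35 to -1.07. The other 5 called members, *Ern1*, *Ddit3*, *Mia3*, *Creb3l1* and *P4ha3*, each lost the call under at least 1 setting.

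**Figure D5:**
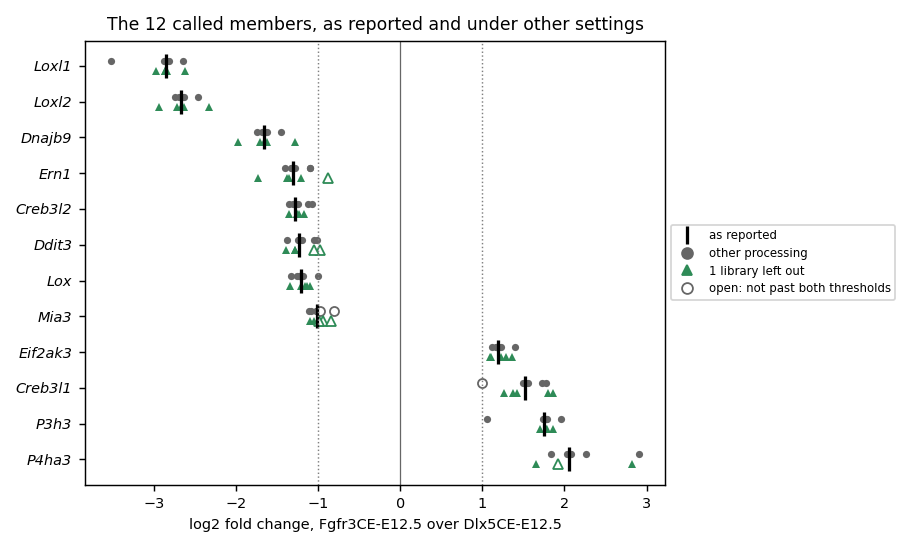
Log2 fold change, Fgfr3CE-E12.5 over Dlx5CE-E12.5 cells, of the 12 called members as reported (black bars), under other processing (grey circles) and with 1 library left out (green triangles). Open symbols are not past both thresholds; they occur for *Ern1*, *Ddit3*, *Mia3*, *Creb3l1* and *P4ha3*.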

How the data were processed

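RNA-seq was performed by the authors on low-input RNA (SMART-Seq cDNA, Nextera XT, no molecular identifiers). By the study's methods, reads were aligned with TopHat and Bowtie2; the submitters' processing notes name mm10, TopHat2 2.0.13, Bowtie2 2.2.1, HTSeq, Cufflinks, Cuffdiff, DESeq2 and FastQC with no role. The authors deposited raw counts per gene, used here; their depth-normalized and rlog tables were not used. With total counts of 22035650 to 58166285, the 5 libraries limit precision more than the counts do.

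Groups were taken from the labels. No libraries agreed within sampling noise, so each is 1 sample. Protein-coding genes (GENCODE M21, GRCm38) and 5 reporters that reached a CPM of 10 in 2 or more libraries entered 1 fit in edgeR 4.0.16 (R 4.3.3; TMM, quasi-likelihood test, no covariates, Benjamini-Hochberg adjustment), which was tested on simulated counts. The standard error is the log2 fold change divided by the root of F.

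The members and all gene lists were chosen with earlier results of these data known. Values in every library are given for called members, for the member of highest mean CPM and of smallest adjusted p in each role, and for members under the filter with at least 3 counts. Of each further list, the largest called change in each direction and the called gene of highest CPM are named, except for 1 gene that is not reported here; *Nupr1*, *Col3a1*, *Col6a1* and the marker genes were named after their values were seen. Gene pairs shown as ratios were picked by hand and follow none of these rules. Promoters are RefSeq's, and protein sequences were not used here. Shared sequence is the percent of 50-base windows found in transcripts of another gene. Alternatives were DESeq2 1.42.0 (size factors, Wald test), scaling by library size, edgeR's exact test, lower filters, all features, the replicate block, removal of a trend on GC content and length, no fold threshold, and each library left out. Figures were drawn with matplotlib 3.10.9.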

Additional observations from a re-analysis of the deposited data

How the results depend on the processing

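Under 14 other settings, 612 of 656 values of single members kept their direction and their side of the thresholds, 29 changed sign, 10 lost the call and 5 gained it; the cause was not tested where none is named. The number of members called was 12 as reported and 25 with no fold threshold, by construction (17 higher in Dlx5CE-E12.5 cells in place of 8, and 8 higher in Fgfr3CE-E12.5 cells in place of 4). It was 8 to 12 with 1 library left out, with 5 to 8 higher in Dlx5CE-E12.5 cells and 3 to 4 higher in Fgfr3CE-E12.5 cells. For all genes, 2971 were called as reported, 4880 with no fold threshold (2517 higher in Fgfr3CE-E12.5 and 2363 higher in Dlx5CE-E12.5 cells) and 2026 to 2987 with 1 library left out (997 to 1680 and 1029 to 1465). Scaled by library size alone, the median of the members was -0.10 in place of -0.31 and that of all genes 0.22 in place of 0.01, so that their difference stayed at -0.32, and 66.3% of calls were higher in Fgfr3CE-E12.5 cells in place of 55.6%. That share was 46.1% without Fgfr3CE-E12.5 replicate 2 and 49.2% without replicate 3. Fitted with the replicate number as a block, 12 members were called, *Hyou1* turned to 0.71, *Sdf2l1* to 0.18 and *Xbp1* to 0.053, and no other member changed sign. Only Dlx5CE-E12.5 cells have a replicate 1, so in this fit that library adds nothing to the change between lineages. The setting is thus close to leaving it out. Nothing ties same-numbered libraries to the same mice. Their deviations correlated at 0.124 and -0.0486. The deviations of the 2 Fgfr3CE-E12.5 libraries mirror each other, so these values cannot decide whether the libraries are paired.

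The other changes of sign were in members with no call. Under that scaling they were *Hsp90b1* at 0.016, *Sdf2l1* at 0.055 and *Xbp1* at 0.10. With the lower filter, *Pdia4* was at -0.0052. After removal of the trend on GC content and length, *Atf6* was at 0.044, *Syvn1* at -0.27 and *Leprel1* at -0.087. With 1 library left out, the log2 fold changes ran from -0.45 to 0.040 for *Calr*, from -0.64 to 0.71 for *Hyou1*, from -0.51 to 0.24 for *Sdf2l1*, from -0.021 to 0.72 for *Creld2*, from -0.10 to 0.24 for *Pdia4*, from -0.22 to 0.11 for *Xbp1*, from -0.34 to 0.51 for *Syvn1*, from -0.0010 to 0.26 for *Plod1*, from -0.14 to 0.54 for *Leprel1*, from -0.43 to 0.0097 for *Pcolce* and from -0.042 to 0.15 for *Sec24d*. The call was lost at 0.88 in place of 1.31 for the fall of *Ern1* and, for the rise of *Creb3l1*, at 1.00 after the trend was removed; *Serpinh1* at -1.13 and *P3h1* at -1.15 gained it there, as *Plod2* did at 1.08 with library size alone. Depth limits *P4ha3*, *Loxl4* and *Pcolce2*, which had at most 173 counts in any Dlx5CE-E12.5 library.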
